A study of Mus musculus with 4 samples.

Results

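The 10 genes described here encode inhibitors of mitogen-activated protein (MAP) kinase signalling: the dual-specificity phosphatase genes Dusp1, Dusp2, Dusp4, Dusp5, Dusp6 and Dusp10, the Sprouty genes Spry1 and Spry2, and the Sprouty-related genes Spred1 and Spred2. They were chosen by symbol among the 34844 names on a mouse Agilent array, on which 12 of the 55681 non-control probes measured them. Spred1 had 3 probes and each of the other genes had 1. All 12 probes (10 of 10 genes) were well above background on each of the 4 arrays and passed the filter on dim probes.

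The RNA came from CD4+ T cells cultured with antibodies to CD3e and CD28 plus TGF-beta and IL-6, which drive T helper 17 (Th17) differentiation, and sorted as CD4+ IL-17F RFP+ cells, RFP being a red fluorescent reporter. The groups were miR-155+/+ (wild type, 2 arrays) and miR-155-/- (knockout, 2 arrays), and the culture, the reporter and the sort were common to all 4 arrays. The series' title links miR-155, a microRNA of activated lymphocytes, to IL-23 responsiveness and effector genes of such cells. No probe name matched miR-155 or its host gene, so the targeted gene was not checked here. The design text calls the arrays biological replicates but no label ties one to an animal or culture, so p-values here reflect only how far these arrays scatter, which may be technical. The labels used here name no age, strain background or number of animals.

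T cell receptor and cytokine signals activate RAS and then the kinases RAF, MEK and ERK, while parallel cascades activate p38 and JNK. Dual-specificity phosphatases end the signal by removing phosphate from the threonine and tyrosine of the active kinase, and many of their genes are themselves switched on by ERK. Sprouty and Spred proteins act higher up, between the receptor and RAF. Several members serve as markers of recent ERK activity in T cells.

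The sequence of the deleted microRNA is shown because its seed, bases 2 to 8 and here in capitals, is the part that pairs with target messages. It lies on chromosome 16 of GRCm38.p6, plus strand, at chr16:84714143-84714165 and was taken from RefSeq's table.
mmu-miR-155-5p: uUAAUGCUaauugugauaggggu
The matching site in a message reads AGCATTA. None of the 12 member probes (0 of 12) held it, and 0.328% of all tested probes did. A probe covers a short stretch of a message, so this says nothing about the rest of it.

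Of the 9 members whose upstream 250 bases were in RefSeq's promoter table, Dusp1 and Dusp5 are shown because each held a match to a motif searched and because the values of these genes lay on opposite sides of wild type. Both strands were searched for the cyclic AMP response element (CRE, TGACGTCA), the AP-1 site TGANTCA, the ETS site CCGGAAG, the CArG box and the NF-kappaB site, and capitals mark the matches. The Dusp1 stretch is chr17:26508473-26508722 on the minus strand and the Dusp5 stretch chr19:53528895-53529144 on the plus strand of GRCm38.p6, each ending at the base before the annotated start.
Dusp1: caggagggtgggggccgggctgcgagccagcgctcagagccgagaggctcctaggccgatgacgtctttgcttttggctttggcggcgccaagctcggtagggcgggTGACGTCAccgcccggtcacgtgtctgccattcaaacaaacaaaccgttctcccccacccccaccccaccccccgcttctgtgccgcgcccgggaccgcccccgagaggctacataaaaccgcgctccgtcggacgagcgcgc
Dusp5: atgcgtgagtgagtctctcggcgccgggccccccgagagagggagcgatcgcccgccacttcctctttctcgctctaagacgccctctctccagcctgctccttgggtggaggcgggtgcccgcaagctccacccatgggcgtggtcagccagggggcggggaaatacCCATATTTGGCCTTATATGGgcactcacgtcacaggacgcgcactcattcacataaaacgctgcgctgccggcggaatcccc
Dusp1 held 1 CRE, from base -143 to -136 counted from the start, a motif in 1.55% of the 32851 upstream windows of the table. Dusp5 held 2 CArG boxes side by side, CCATATTTGG from -82 to -73 and CCTTATATGG from -72 to -63. The CArG box, the site bound by serum response factor, was in 1.47% of the windows. The AP-1, ETS and NF-kappaB sites were in 6.75%, 6.91% and 7.25% of windows and in 0 of the 9 member windows. Such matches are descriptions of the letters, and no binding was measured.

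Levels below are log2 processed signals minus the array's 75th percentile over non-control probes, so that 0 is the 75th percentile of that array. Differences are log2 knockout minus wild type. Apart from the sums over cell type markers, levels of different probes are not set against each other. Fewer cells of a type and less RNA per cell cannot be told apart in such bulk samples.

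Markers of the sorted cells and of other cell types were set beside the genotypes. The 8 T cell markers had a summed level, on the linear scale relative to the 75th percentile, of 751 and 802 in wild type and 736 and 730 in the knockout. The 7 Th17 markers had lower values in 7 of 7 (6 at an unadjusted limma p under 0.05), with sums of 29.9 and 31.9 against 11.8 and 11.3, and Il17f, the gene of the sort's reporter, differed by -2.01 ± 0.19 (SE). The CD8 and NK markers had sums of 229 and 127 against 364 and 370, of which Gzma, a granzyme gene, made up 213 and 108 against 352 and 355. The other 6 tested genes summed to 15.9 and 19.4 against 12.1 and 15.1. This sum mostly followed Klrd1, at a mean level of 4.05 ± 0.21 (SD) in wild type and 3.58 ± 0.27 (SD) in the knockout. The rest of these 6 genes had mean levels below 0 in both genotypes, so the sum says little about them. At an unadjusted limma p under 0.05, 4 of the 7 were higher (Cd8a, Gzma, Klra8 and Eomes), Cd8a at 1.30 ± 0.17 (SE), while Cd8b1 at -0.13, Klrd1 at -0.47 and Klrk1 at -0.13 lay below 0, and Klrb1c and Ncr1 were too dim to be tested. The B cell sums were at most 3.99 in wild type and 4.43 and 4.87 in the knockout, and without Cd79b, in a corner block, they were 2.15 and 1.82 against 1.36 and 1.35. Of 6 tested B cell genes 1 was higher (Cd79b, 1.16) and 2 lower (Cd22, -0.60, and Ebf1, -0.97) at an unadjusted limma p under 0.05, and Ms4a1 was too dim to be tested. Cd22, which stays in the sums without Cd79b, also lay in a corner block. Gzma and Cd79b were singled out after their values were seen. The myeloid sums were 18.1 and 17.8 against 19.0 and 19.4. The part of these shifts in the values of the MAP kinase inhibitors was not tested. The precision was limited by the number of arrays, of which 63.5% to 69.8% of spots were well above background and 0 were saturated. The wild-type arrays lay in row 1 and the knockout arrays in row 2 of the same slide, so row and genotype cannot be told apart.

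Between genotypes the members formed a lower, a higher and an overlapping set. Dusp1, Dusp4, Spry1, Spred1 and Spred2 had both knockout arrays below both wild-type arrays (5 of 10 members), Dusp5 and Spry2 had both above (2 of 10), and Dusp2, Dusp6 and Dusp10 overlapped (3 of 10). Values were below 0 for 5 of 10 members, as for 44.8% of the 37196 probes tested. Over all these probes, 19.8% lay below and 26.2% above in this way, 46% in all. The largest differences were Dusp5 at 0.71 ± 0.23 (SE), Dusp1 at -0.53 ± 0.14 (SE), Spred2 at -0.53 ± 0.13 (SE) and Spry1 at -0.46 ± 0.15 (SE). No member passed limma's test over all probes: 0 of 12 member probes and 0% of all probes had a Benjamini-Hochberg adjusted p under 0.05, the member values running from 0.424 to 0.998.

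Members with an unadjusted limma p under 0.05 numbered 3 on the lower side (Dusp1, Spry1 and Spred2) and 1 on the higher side (Dusp5), against 3.33% of all probes lower and 6.8% higher, 10.1% together. The members were chosen with earlier results of these data known, so these counts are no test of enrichment. With 1 array left out, the lone array of its genotype is assumed to vary like the pair of the other. The differences then ran from -0.60 to -0.46 for Dusp1, -0.56 to -0.37 for Spry1 and -0.59 to -0.46 for Spred2. Fewer members were lower at that p in each of these fits. The share of all probes lower at that p also fell when a wild-type array was left out, but rose when a knockout array was. Dusp5 was at 0.52, and no longer past that p, without wild-type replicate 2 or knockout replicate 1. With normexp background correction there were 5 lower members, Dusp4 and Spred1 being added, and 2 higher, Spry2 being added, while 4.59% of all probes were lower and 19.1% higher. The median over the 10 members was -0.14, beside 0.036 over all tested probes. With 2 arrays per genotype the smallest two-sided p open to an exact permutation test is 0.333.

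**Figure D1:**
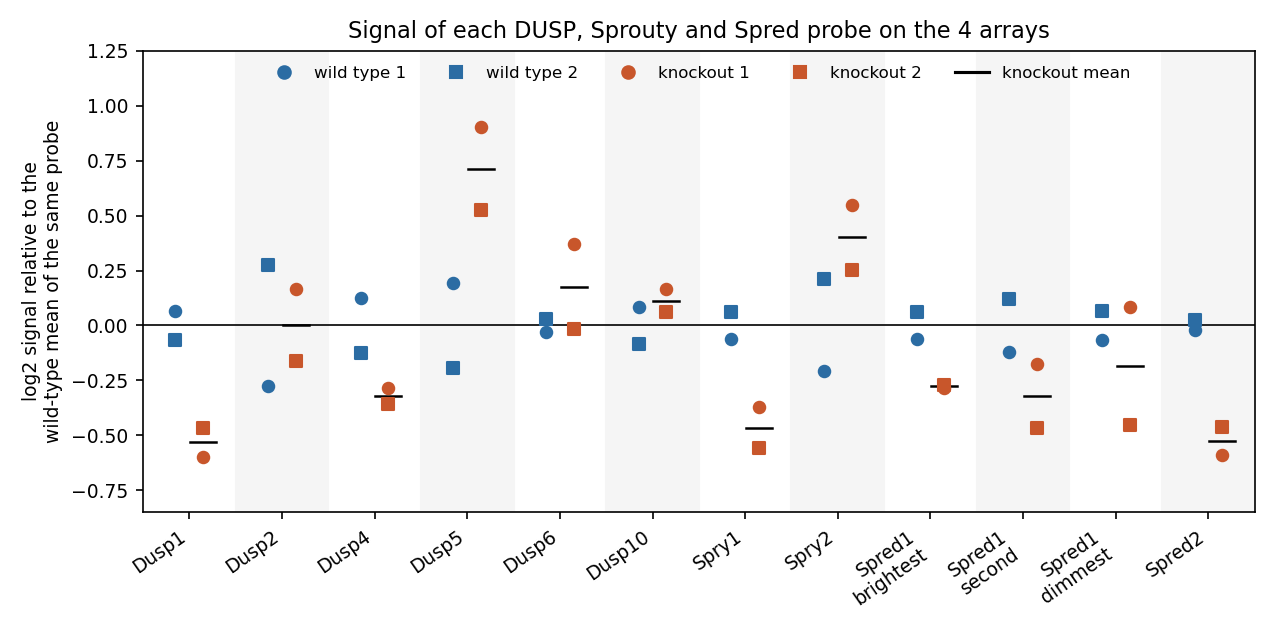
Signal of each of the 12 member probes on each array, in log2 units relative to the wild-type mean of the same probe, with circles for replicate 1, squares for replicate 2 and a bar for the knockout mean. Both knockout points of Dusp1, Dusp4, Spry1 and Spred2 lie below both wild-type points, and those of Dusp5 and Spry2 lie above.

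Among the inducible nuclear phosphatases, Dusp1 and Dusp5 lay on opposite sides of wild type. Dusp1, which acts on p38 and JNK as well as ERK, was measured at chr17:26642526-26642536 on mm9, a short span as the files give it. Its levels were 0.43 and 0.30 on the wild-type arrays and -0.23 and -0.10 on the knockout arrays. Both knockout arrays were thus below both wild-type arrays, by more than the SD of 0.09 within each genotype (n = 2).

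The Dusp1 difference of -0.53 had a 95% interval of -0.91 to -0.15 and was a 1.44-fold lower signal. It was lower than the differences of all but 5.06% of tested probes, and its adjusted p from limma was 0.432. The Dusp1 spot lay in a corner block at the right edge of the array where signals scattered more. Between the wild-type arrays the SD of the difference was 1.54 over the corner blocks and 0.40 elsewhere. Between the knockout arrays it was 1.38 and 0.38. The limma interval draws part of its spread from all tested probes, so it may be too narrow for a spot there. The 1921 tested probes of these blocks had a median difference of -0.28, against 0.044 for the rest of the array, and 6.98% of them were lower at an unadjusted p under 0.05, against 3.13%. The part of the block in the Dusp1 value was not tested. On knockout array 1 the scanner's multiplicative correction, 0.902 at this spot, had not been applied, and with it applied the difference was -0.47.

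Dusp5, a nuclear phosphatase that acts on ERK alone, was the member with the largest difference. Its probe lies at chr19:53615682-53615741 on mm9. The levels were -2.45 and -2.84 in wild type and -1.74 and -2.12 in the knockout, with SDs of 0.27 in both genotypes. Both knockout arrays were above both wild-type arrays, although the gap between the groups, from -2.45 to -2.12, was narrower than the spread within either.

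The Dusp5 signal was 1.64-fold higher in the knockout, with a 95% interval of 0.10 to 1.33 on the log2 scale and an adjusted p of 0.466 from limma. The difference was above those of 94.6% of tested probes. It was a dim probe, with linear signals of 85.3 to 133. The scanner's own error was 10.1% to 10.6% of the signal, beside 10% for the Dusp2 probe, which was not dim. Without wild-type replicate 1 the Dusp5 difference was 0.91.

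Dusp4, also nuclear and induced by ERK and measured at chr8:35882045-35882104 on mm9, had levels of 0.99 and 0.74 in wild type and 0.58 and 0.51 in the knockout. The groups did not overlap, and the difference of -0.32 ± 0.15 (SE) had a 95% interval of -0.74 to 0.096. Dusp2, a phosphatase of activated lymphocytes measured at chr2:127163930-127163989, had levels of 5.44 and 5.99 in wild type and 5.88 and 5.56 in the knockout. Both knockout values lay between the wild-type values, and the difference was 0.0012 ± 0.25 (SE), with an interval of -0.69 to 0.69. At this spread a difference of that size in either direction was not detectable for Dusp2. The correction not applied on knockout array 1 was 1.14 at the Dusp2 spot, and with it applied the difference was -0.11.

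Dusp6 and Dusp10 overlapped between genotypes. Dusp6, the cytoplasmic phosphatase specific for ERK, measured at chr10:98729985-98730044 on mm9, had levels of 2.46 and 2.52 in wild type and 2.86 and 2.47 in the knockout. Only knockout array 1 stood above the rest, and the difference was 0.18 ± 0.18 (SE). It became -0.016 without knockout replicate 1 and 0.37 without knockout replicate 2. The correction not applied on knockout array 1 was 1.14 at the Dusp6 spot, and with it applied the difference was 0.065. Dusp10, which acts on JNK and p38 and was measured at chr1:185898608-185898667, had levels of 0.57 and 0.41 in wild type and 0.66 and 0.55 in the knockout. Knockout array 1 was the highest, and knockout array 2 lay between the wild-type arrays. Its difference was 0.11 ± 0.14 (SE), with a 95% interval of -0.27 to 0.50.

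The Sprouty genes lay on opposite sides of wild type. Spry1, an inhibitor of RAS and ERK activation, was measured at chr3:37543403-37543462 on mm9. Its levels were 0.28 and 0.40 in wild type and -0.027 and -0.21 in the knockout. Both knockout arrays were below both wild-type arrays, beyond the SDs of 0.08 and 0.13.

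The Spry1 signal was 1.38-fold lower in the knockout, with a 95% interval of -0.86 to -0.067 for the log2 difference and an adjusted p of 0.465 from limma. Spry2, its close relative, measured at chr14:106291845-106291904, had levels of -3.68 and -3.26 in wild type and -2.92 and -3.22 in the knockout. The groups did not overlap, but -3.22 in the knockout lay next to -3.26 in wild type. The Spry2 difference was 0.40 ± 0.22 (SE), with an interval of -0.19 to 0.99. It was a dim probe, with linear signals of 44.4 to 63.9 and a scanner error of at least 10.7% of the signal. Whether the Sprouty genes differed from each other was not tested.

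Both Spred genes had lower values in the knockout. Spred2, whose protein brings the RAS inhibitor neurofibromin to the membrane, was measured at chr11:19922416-19922475 on mm9. Its levels were 0.33 and 0.38 in wild type and -0.24 and -0.11 in the knockout. Both knockout arrays were below both wild-type arrays, and the SDs within the genotypes were 0.03 and 0.09.

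The Spred2 signal was 1.44-fold lower, with a 95% interval of -0.89 to -0.16 and an adjusted p of 0.424 from limma, the lowest of the 12 member probes. The correction not applied on knockout array 1 was 0.883 at the Spred2 spot, and with it applied the difference was -0.45.

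The 3 probes of Spred1, which has the same role as Spred2, all had values below 0, and they share the gene and so are not replicates. The brightest, at chr2:117005906-117005965 on mm9, had levels of -0.48 and -0.36 in wild type and -0.70 and -0.69 in the knockout, a difference of -0.28 ± 0.13 (SE). The second, at chr2:117004952-117005011, had levels of -1.09 and -0.85 against -1.15 and -1.44, a difference of -0.32 ± 0.18 (SE). In both probes the knockout arrays were below the wild-type arrays. The dimmest, at chr2:116998491-116998550 and annotated in the files to another transcript, had levels of -4.22 and -4.09 against -4.07 and -4.61. Its groups overlapped, its difference was -0.19 ± 0.23 (SE), and the scanner's error reached 19.3% of the signal. The correction not applied on knockout array 1 was 1.07 at the brightest spot and 1.14 at the second and dimmest spots. With it applied the differences were -0.34 (brightest), -0.43 (second) and -0.30 (dimmest). Exon and intron annotation on mm9 was not used here.

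**Figure D2:**
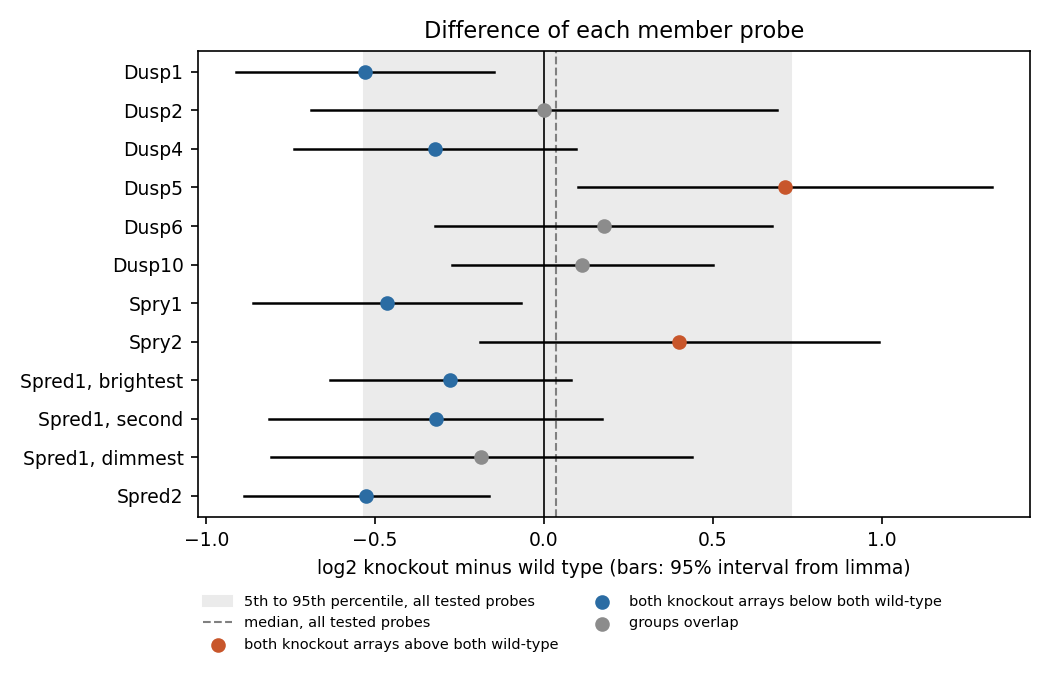
Difference of each member probe, log2 knockout minus wild type, with its 95% interval, over the band from the 5th to the 95th percentile of all tested probes (-0.53 to 0.73). Points for Dusp1, Dusp5, Spry1 and Spred2 have intervals clear of 0, and all 12 points lie within the band.

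The remaining DUSP, Sprouty and Spred genes, relatives of the members, lay mostly below 0. Of 18 on the array 14 were tested, with 10 lower and 4 higher values, beside 44.8% of all probes below 0. Of these 14, 0 had an unadjusted limma p under 0.05, beside 10.1% of all probes. The median of the 14 was -0.094, and it was -0.25 with median scaling and -0.0036 with normexp background correction. Dusp18, Dusp26, Spry3 and Spry4 were not well above background on any array.

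The ERK cascade itself, from the adaptors to the kinases, had 21 genes on the list. Of these, 19 were tested, of which 12 were higher and 7 lower, 0 had an unadjusted p under 0.05, and the median was 0.049. Mapk3, the ERK1 gene, differed by 0.16 ± 0.13 (SE), and its other probe by 0.40. The MEK genes Map2k1 and Map2k2 differed by -0.11 and 0.049, and the other probe of Map2k2 by 0.37.

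Of the 19 tested genes of the p38 and JNK cascades 14 lay above 0 and 5 below, and the median was 0.096. At an unadjusted p under 0.05 there was 1 higher gene, Mapk12, a p38 isoform, at a mean level of -1.26 ± 0.07 (SD) on the wild-type arrays and -0.25 ± 0.32 (SD) on the knockout arrays, n = 2 each. Its difference was 1.01 ± 0.20 (SE), a 2.01-fold higher signal. There was also 1 lower gene, Map3k5, a kinase that responds to oxidative stress, at -0.47 ± 0.15 (SE), although its other probe gave 0.025. Neither passed over all probes, with adjusted p of 0.407 and 0.474 from limma.

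Other brakes on RAS and ERK had a median of 0.026, with 9 of 16 tested genes above 0 and 7 below. The 1 lower gene with an unadjusted p under 0.05 was Dgkz, whose enzyme consumes the diacylglycerol that activates RAS in T cells. Dgkz was at a mean level of 4.29 ± 0.04 (SD) on the wild-type arrays and 3.85 ± 0.12 (SD) on the knockout arrays, n = 2 each, a difference of -0.44 ± 0.14 (SE).

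Genes that ERK induces had a median of -0.022, with 11 of 20 lower and 9 higher. Some of the lower genes, Fos among them, lay in corner blocks, and without these blocks the median was 0.066. At an unadjusted p under 0.05 there were 2 lower genes, the transcription factor genes Egr3 and Myc. Myc was at a mean level of 4.08 ± 0.20 (SD) on the wild-type arrays and 3.48 ± 0.24 (SD) on the knockout arrays, n = 2 each, a difference of -0.60 ± 0.20 (SE). Egr3 differed by -0.64 ± 0.15 (SE), from a dim probe that 1 of the 2 knockout arrays did not measure well above background. Egr1 differed by -0.31 ± 0.14 (SE), and Fos, in a corner block, by -0.48 ± 0.28 (SE). Etv5, an ETS factor gene that follows ERK activity, was on the other side at 0.31 ± 0.13 (SE). Over these 5 lists 5 of 88 tested genes (5.68%) had an unadjusted limma p under 0.05, 0 an adjusted one, beside 10.1% of all probes, and the groups did not overlap for 51.1%, beside 46%.

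**Figure D3:**
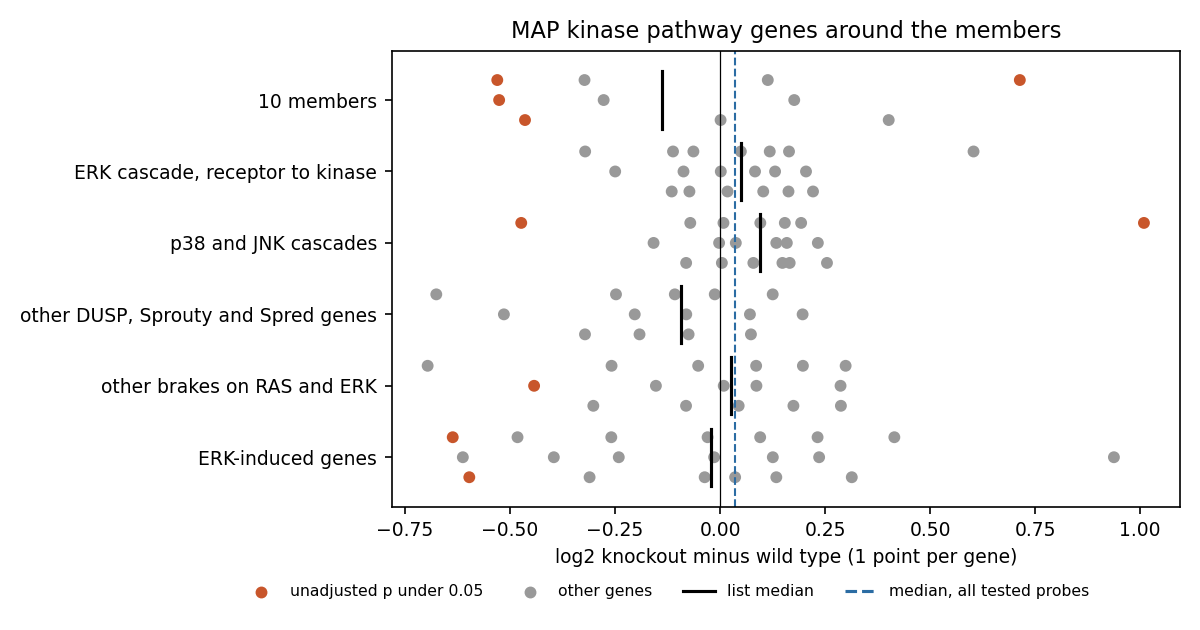
Differences of the 10 members and of the tested genes in 5 lists of the surrounding pathway, 1 point per gene by its brightest probe, with list medians as black bars and the median of all tested probes as a dashed line. The medians lie from -0.14 for the members to 0.096 for the p38 and JNK list, and orange points mark an unadjusted p under 0.05.

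The direction of some members depended on scaling. With arrays shifted by their median instead, the median of all tested probes went from 0.036 to -0.12. This change takes the same constant from every difference, so every member moved down by the same amount. Dusp10 then turned to -0.047 and Dusp2 to -0.16, Spred1 joined the lower members at an unadjusted p under 0.05, and Dusp5 was no longer past it, as also under quantile scaling. Under median scaling 9.14% of all probes were lower and 3.47% higher at that p. Dusp1, Dusp4, Spry1, Spred1 and Spred2 stayed below 0, and Dusp5 and Spry2 above 0, by their brightest probes under every setting with a value. Many of these settings could not have changed the direction. Those that alter only the filter, the probes kept or the replicate block leave the difference of a probe as it was. Leaving out an array cannot reverse a member whose groups do not overlap, as in all of these members.

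**Figure D4:**
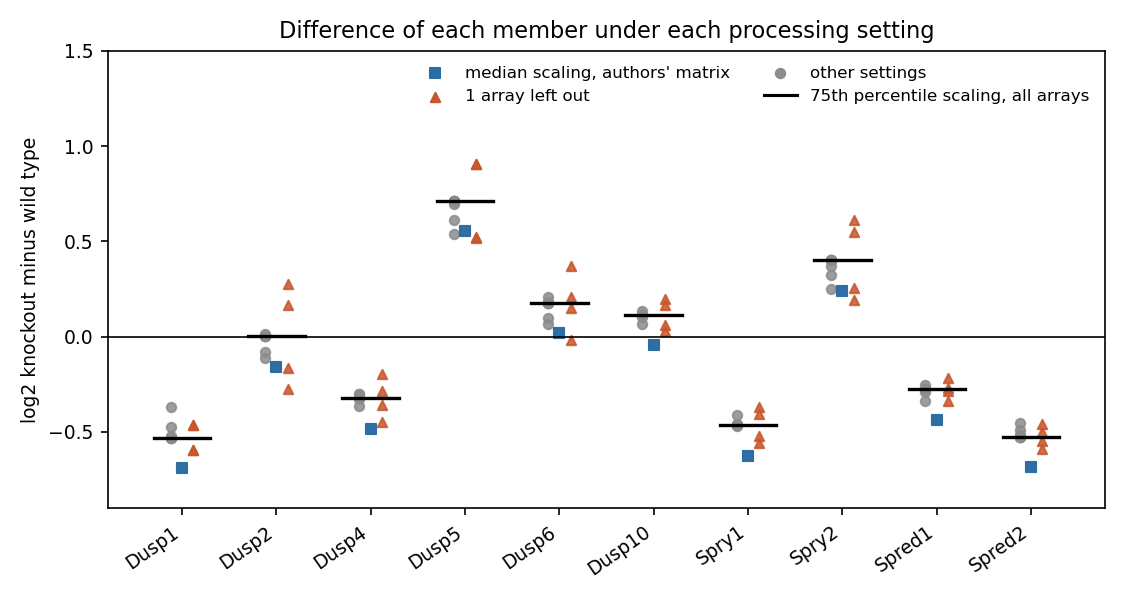
Difference of each member, by its brightest probe, under each of 14 other settings, with a black bar for the setting reported in the text. Points of Dusp2, Dusp6 and Dusp10 fall on both sides of 0, and those of the other 7 members on 1 side.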

How the data were processed

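The authors deposited 1 Agilent Feature Extraction 10.5.1.1 output per array. Its processed signal is an intensity, background subtracted and detrended, and its multiplicative surface is a ratio, per the file headers. The surface had been applied to 0.799% of the spots well above background of knockout array 1 and to 100% of those of the other arrays. The deposited matrix of log2 values differed from the log2 signals by 1 constant per array for at least 99.4% of probes (tolerance 0.001). It was used as an alternative.

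Control spots and outlier spots were left out, spots of a probe were averaged (pandas 2.3.3), and each array was shifted by its 75th percentile. Probes with a value on every array, and well above background on each array of at least 1 genotype, were tested with limma 3.58.1 in R 4.3.3 (lmFit, eBayes, 2 residual and 2.19 prior degrees of freedom) and Benjamini-Hochberg adjustment at 0.05, over all 37196 probes at once. The fit was also run on simulated data, with a common SD for all probes and shifts larger than any member difference. That run does not show whether differences of the size seen here could be called. A gene is led by its brightest tested probe. All members and all their probes were named, together with up to 5 genes per pathway list and direction at an unadjusted p under 0.05 with groups apart, and 8 fixed pathway genes, of which 1 is not reported here. The members and lists were chosen with earlier results of these data known. Alternatives covered scaling, background, filter, detrending, corner blocks, 1 probe per gene, the replicate number as a block, and each array left out.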

Additional observations from a re-analysis of the deposited data

How the results depend on the processing

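No member passed an adjusted p of 0.05 under any of the 14 settings, and 7 of 10 kept their direction in all that gave a value. For direction these are not 14 separate tests. The filter, 1-probe and corner-block settings and the replicate block leave the difference of a probe unchanged. Leaving out 1 array cannot reverse a member whose groups do not overlap, as in these 7. With median scaling 1292 higher probes and 3398 lower ones had an unadjusted p under 0.05 (27.5% higher, beside 67.2% of 2530 and 1237), 0 higher members, and 10 lower genes in the pathway lists. The medians were then -0.11 (ERK cascade), -0.065 (p38 and JNK), -0.13 (other brakes) and -0.18 (ERK-induced), beside -0.12 for all probes, with Dusp2 at -0.16 and Dusp10 at -0.047. The authors' matrix gave the same values except 3396 lower probes. Quantile scaling gave 2065 lower probes (48.5% higher) and 0 higher members. With normexp there were 7089 higher probes (80.6% higher), 5 lower and 2 higher members, 9 lower and 4 higher list genes, a median of -0.029 for other brakes, Dusp2 at -0.079 and the dimmest Spred1 probe at 0.12. With no filter (75.7% higher) 1 list gene was lower. With probes above background on all arrays, or without the corner blocks (where Dusp1 has no value), 2 list genes were higher, and in the latter the ERK-induced median was 0.066. With knockout array 1 detrended, Dusp2 was at -0.11 and the other-brakes median at -0.060.

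With the replicate block there were 814 lower probes, 1 lower member (Spred2), and 1 lower and 2 higher list genes. The labels do not say that a number marks a shared animal or day, and same-numbered arrays had deviations correlated at -0.0037 over 37196 probes. Leaving out 1 array gave 0 to 53 probes past an adjusted p of 0.05, 53 of them without wild-type replicate 1. It gave 601 to 1739 lower probes, 0 to 2 lower and 0 to 1 higher members, and 1 to 6 lower and 1 to 2 higher list genes. Medians ran from -0.022 to 0.12 (ERK cascade), 0.012 to 0.15 (p38 and JNK), -0.038 to 0.10 (other brakes) and -0.11 to 0.018 (ERK-induced), Dusp2 from -0.27 to 0.28, Dusp6 from -0.016 to 0.37 and the dimmest Spred1 probe from -0.46 to 0.084. Dusp2 was also at -0.16 without knockout replicate 1. The causes were not tested. The dimmest Spred1 probe had a scanner error of up to 19.3% of the signal, and the part of this error in its range was not tested.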
